A study of Mus musculus with 10 samples.

Results

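The 9 genes described here encode the proteins that build caveolae, selected by symbol from the 35667 genes of the deposited count files. They are the caveolins Cav1, Cav2 and Cav3, the cavins Cavin1, Cavin2, Cavin3 and Cavin4, and the neck and membrane-shaping proteins Ehd2 and Pacsin2. The files carry the cavins under their older symbols Ptrf, Sdpr, Prkcdbp and Murc. All 9 were found, 1 row each, and 8 had enough reads to be tested. The measurements are RNA sequencing of the aorta, the main artery leaving the heart, in C57BL/6 mice aged 12 weeks. There are 5 libraries titled Ovgp1 knockout (KO) and 5 titled wild type (WT). Ovgp1 encodes oviductal glycoprotein 1, a secreted protein that the title of the series links to high blood pressure and remodelling of the vessel wall. Neither the altered stretch of Ovgp1, nor the cells in which it was altered, nor a separate animal for each library is stated in the labels. In the genotype field, KO replicates 2 to 5 carry the names Ovgp2 to Ovgp5 in place of Ovgp1.

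Caveolae are small flask-shaped pits of the plasma membrane that are abundant in smooth muscle cells, endothelial cells and adipocytes. Caveolins are hairpin membrane proteins that form the coat, and cavins are cytoplasmic proteins that assemble on it and keep its curved shape. Ehd2, an ATPase, forms a ring at the neck that holds the pit at the surface, and Pacsin2 is an F-BAR protein that bends the membrane. In the vessel wall, caveolae are known for buffering membrane stretch and for holding the nitric oxide synthase of endothelium and calcium-handling proteins of muscle. Cav1 and Cav2 are found together in most cells, and Cav2 needs Cav1 to reach the surface. Cav3 and Cavin4 are known as the muscle forms.

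Total counts ran from 24434745 to 26694590 in the libraries labelled KO and from 21242030 to 24396394 in those labelled WT. Ovgp1 itself went against its label, with a KO mean of 19.4 CPM (read counts scaled to library size) against a WT mean of 3.69 CPM, so every direction below follows the labels only. The 5 libraries labelled KO were nearly identical. Pairs of libraries were compared over 12509 genes by a chi-square divided by its degrees of freedom, near 1 where counting error is the sole source of spread. It was 1.77 to 3.25 for the 10 KO pairs and 11 to 154 for the 10 WT pairs. A p-value from 5 against 5 libraries measures the spread between these libraries, which may be technical, and whether the KO libraries share 1 source was not tested. For each tested member the difference is given a second time with the KO counts summed into 1 sample and compared with the 5 WT libraries. In that form the adjusted p of Ovgp1 was 0.217, against 2.84e-05 with 5 KO libraries (edgeR). Aortic identity was checked on smooth muscle genes. Myh11, the myosin of smooth muscle, had means of 9067 CPM in KO and 8630 CPM in WT, and Acta2, its actin, 22634 and 19842 CPM. Tagln, another smooth muscle marker, was at only 20.7 to 23.4 CPM in KO and 22.2 to 29.3 CPM in WT.

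The promoters of 4 members are shown because the results turn on these genes: Cav1 and Cav2, which are neighbours on chromosome 6 and whose ratio differed between the groups, Cav3, the only member that passed the test, and Cavin1, the most abundant member per length in 5 of 5 KO libraries. Each is the 250 bases before the outermost start site in the RefSeq table (GRCm38.p6), 5′ to 3′ on the gene's strand. The windows are chr6:17306085-17306334 on the plus strand for Cav1, chr6:17280935-17281184 on the plus strand for Cav2, chr6:112459255-112459504 on the plus strand for Cav3 and chr11:100970618-100970867 on the minus strand for Cavin1. In the GENCODE M21 annotation Cavin1 starts farther upstream, at 100970887, so its printed window lies inside the gene as annotated there. Capitals mark matches on either strand to 6 motifs. These are CATTCC of the TEAD factors, GGGCGG of the Sp factors, the TATA box as TATAAA, the CCAAT box, the E-box as CACGTG and the CArG box of serum response factor.
Cav1: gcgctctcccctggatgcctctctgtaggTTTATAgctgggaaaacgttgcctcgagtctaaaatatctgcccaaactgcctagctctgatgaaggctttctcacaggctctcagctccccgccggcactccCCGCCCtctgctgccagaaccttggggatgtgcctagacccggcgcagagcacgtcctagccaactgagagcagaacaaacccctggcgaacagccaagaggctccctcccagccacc
Cav2: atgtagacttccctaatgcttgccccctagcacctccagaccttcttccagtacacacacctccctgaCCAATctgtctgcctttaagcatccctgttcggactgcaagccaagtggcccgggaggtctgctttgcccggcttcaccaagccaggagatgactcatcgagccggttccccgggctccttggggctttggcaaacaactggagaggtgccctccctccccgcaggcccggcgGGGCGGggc
Cav3: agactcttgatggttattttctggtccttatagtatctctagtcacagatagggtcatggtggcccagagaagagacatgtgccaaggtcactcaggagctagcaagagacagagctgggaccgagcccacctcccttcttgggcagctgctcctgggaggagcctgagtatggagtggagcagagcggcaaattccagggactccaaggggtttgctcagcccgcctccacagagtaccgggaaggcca
Cavin1: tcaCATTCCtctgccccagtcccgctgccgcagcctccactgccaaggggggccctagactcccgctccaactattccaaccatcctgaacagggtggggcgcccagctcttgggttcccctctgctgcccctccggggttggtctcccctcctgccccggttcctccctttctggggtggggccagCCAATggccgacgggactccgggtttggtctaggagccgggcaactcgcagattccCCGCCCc
The window of Cav3 held none of the 6 motifs. GGGCGG, on one strand or the other, lay in the windows of Cav1, Cav2 and Cavin1, 118, 9 and 7 bases before the RefSeq start. It was in 5 of the 8 members found in the table and in 33.0% of 27025 promoters of the same length. CCAAT was in Cav2 and Cavin1, in 5 of 8 members and in 34.5% of promoters. The TATAAA match of Cav1 began 221 bases before the start, and its motif was in 2 members and 13% of promoters. CATTCC, in Cavin1, was in 12.6% of promoters. The CArG box and CACGTG were in no member's window and in 1.41% and 6.04% of promoters. A match is a run of letters and not a shown binding site, and no overlap between motifs occurred in the printed windows. The share of G and C was 59.6% in Cav1, 62% in Cav2, 56% in Cav3 and 67.6% in Cavin1, against a median of 52% over all promoters.

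The members lie on 6 chromosomes of GRCm38, by a match of the deposited identifiers to GENCODE M21. Cav2 (ENSMUSG00000000058, 17281185 to 17289115) and Cav1 (ENSMUSG00000007655, 17306335 to 17341452) lie next to each other on chromosome 6, and Cav3 (ENSMUSG00000062694, 112459505 to 112472872) lies farther along it. Cavin1 (ENSMUSG00000004044) is on chromosome 11, 100956733 to 100970887, and Cavin2 (ENSMUSG00000045954) on chromosome 1, 51289126 to 51302960. Cavin3 (ENSMUSG00000037060) and Ehd2 (ENSMUSG00000074364) are both on chromosome 7, at 105480083 to 105482300 and 15946958 to 15967567. Cavin4 (ENSMUSG00000028348) is on chromosome 4, 48663514 to 48673502, and Pacsin2 (ENSMUSG00000016664) on chromosome 15, 83375607 to 83464606. The strand setting of the counting is not given in the sources used here, nor how reads in overlaps were counted. Overlapping genes held few counts, which cannot show whether reads of the members were lost there. The antisense gene Gm15581, which overlaps Cav1 and Cav2, had at most 2 counts in any library, and the pseudogene Gm5417 inside Pacsin2 at most 16.

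Per length of exon, Cavin1 and Cav1 were the most abundant members and Cavin4 was close to absent. In the libraries labelled WT, Cavin1, without which caveolae do not form, had a mean of 293 CPM per kb of exon. Cav1, the main coat protein outside striated muscle, had 285 CPM per kb. With the longest transcript as the length, Cav1 had 358 and Cavin1 301 CPM per kb in WT, so their order depends on the length used. These 2 levels did not separate, since their WT ranges overlapped and Cavin1 was the higher in 2 of 5 WT libraries. In the libraries labelled KO the mean level of Cavin1 was 298 CPM per kb and that of Cav1 was 215 CPM per kb, with Cavin1 higher in 5 of 5. Ehd2 followed at a WT mean of 158 CPM per kb and Cavin3, a regulatory cavin, at 110, and their WT ranges also overlapped. Pacsin2 had 66.0, Cav2 39.8, Cav3 28.1 and Cavin2 21.4 CPM per kb as WT means, each above the next in 5 of 5 WT libraries. Cav3 and Cavin2 changed places in the libraries labelled KO, where Cav3 had a mean of 19.0 CPM per kb and Cavin2, a cavin that shapes curvature, 21.8 CPM per kb. Cavin2 was the higher of the pair in 5 of 5 KO libraries and Cav3 in 5 of 5 WT libraries, and the ranges of the 2 genes overlapped in neither group. Cavin4, the muscle cavin, had 6 to 12 counts in each library labelled KO and 3 to 10 in each labelled WT, 0.287 and 0.257 CPM as means. It did not pass the filter on low counts, and at this depth no difference was detectable.

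**Figure D1:**
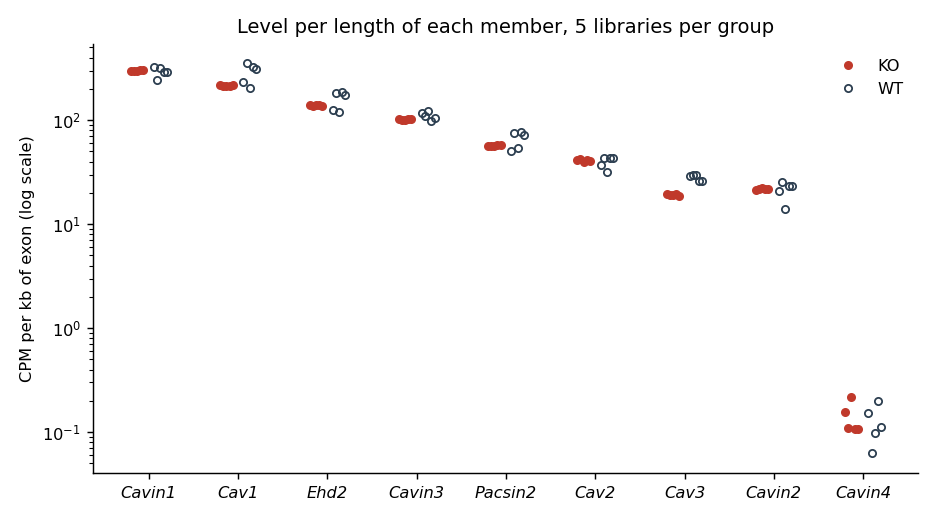
Level of each of the 9 members per kb of annotated exon (CPM per kb, log axis) in the 5 libraries labelled KO (filled) and the 5 labelled WT (open). Cavin1 and Cav1 lie at the top near 293 and 285 CPM per kb as WT means, and Cavin4 lies far below the others.

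Among the caveolins, Cav3 was lower in the libraries labelled KO, and Cav1 and Cav2 did not pass. Cav3 had 22.3, 22.0, 22.1, 22.3 and 21.4 CPM in KO replicates 1 to 5 and 33.3, 34.4, 34.4, 30.2 and 30.4 CPM in WT replicates 1 to 5. The groups did not overlap, and the lowest WT library stood well above the highest KO library. The difference was -0.56 on the log2 scale (SE 0.05, adjusted p = 0.000138, edgeR quasi-likelihood), a fold of 0.677 with a 95% interval of 0.623 to 0.735. Cav3 was the only member whose groups did not overlap, 1 of 8, against 14.6% of all tested genes, 7.38% with every KO library above and 7.18% with every KO library below (exact permutation p = 0.00794, at the floor of a 5 against 5 design). Across the genome 14.3% of tested genes passed an adjusted p of 0.05, 6.84% being higher and 7.43% lower in KO, so 1 call among 8 members, 12.5%, is near that background. With KO as 1 sample the fold of Cav3 was 0.676 (95% interval 0.542 to 0.844, unadjusted p = 0.00396) and its call ended, at an adjusted p of 0.928. In that comparison 3.72% of genes had an unadjusted p under 0.05 and 0.0446% passed after adjustment, all higher in KO and 0% lower.

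Because Cav3 is known from striated as well as smooth muscle, marker levels are set beside it. The summed level of 8 smooth muscle markers was 36829 to 37479 CPM in KO, inside the WT range of 26900 to 40655 CPM, with 0 members higher and 1 lower, Tagln. Relative to Myh11, Cav3 had 2.37 to 2.46 counts per 1000 Myh11 counts in KO and 3.47 to 4.19 in WT, so its groups were also apart on that scale. The summed level of 18 striated muscle markers was 171 to 177 CPM in KO and 164 to 285 CPM in WT, where WT replicate 2 was highest. Of these, 10 were tested and 0 passed (16 of 18 had a mean under 30 CPM in both groups). The most abundant, the calcium release channel Ryr2, had means of 86.2 and 107 CPM, and the cardiac troponin gene Tnnt2 50.6 and 61.0 CPM. The skeletal myosin genes Myh1, Myh2 and Myh4 had at most 9 counts in any library. The cardiac myosin gene Myh6 had 322 to 400 counts in KO and 18 to 1399 in WT. For Myh6 1 WT library lay above every KO library and 4 below, so striated muscle RNA was uneven between WT libraries. In bulk tissue, fewer cells of a type and less RNA per cell cannot be told apart.

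Cav1 had 755, 729, 739, 734 and 752 CPM in KO replicates 1 to 5 and 797, 1208, 709, 1123 and 1073 CPM in WT replicates 1 to 5. WT replicates 2, 4 and 5 stood high, WT replicate 1 was just above the KO range, and WT replicate 3 was below every KO library. The log2 difference was -0.41 (SE 0.13, adjusted p = 0.0593; fold 0.755, 95% interval 0.620 to 0.920), which just missed the threshold, as did the exact permutation test (p = 0.0556). The call depended on single WT libraries. Without WT replicate 1 the log2 difference was -0.46 and the adjusted p was 0.0342, and without WT replicate 3 they were -0.50 and 0.00764. These libraries held the lowest WT values of Cav1. Leaving out either one enlarges the difference by construction, so these calls are no separate support for it. With KO as 1 sample the 95% interval of the fold was 0.459 to 1.24.

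Cav2 did not follow its neighbour. It had 137, 140, 132, 137 and 135 CPM in KO replicates 1 to 5 and 123, 145, 106, 145 and 143 CPM in WT replicates 1 to 5. WT replicates 2, 4 and 5 were again the high ones, but the KO libraries fell between them and WT replicates 1 and 3. The log2 difference was 0.04 (SE 0.08, adjusted p = 0.803), with folds from 0.907 to 1.16 inside its 95% interval. Summing the KO counts widened this to 0.755 to 1.39.

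The cavins showed no difference that passed. Cavin1 had 1056 to 1081 CPM in the libraries labelled KO and 1155, 878, 1142, 1037 and 1049 CPM in WT replicates 1 to 5, which differed by 0.02 on the log2 scale (SE 0.07, adjusted p = 0.880). Its WT order ran against that of Cav1, with replicates 1 and 3 highest and replicate 2 lowest. Cavin2 had 65.0 to 68.5 CPM in KO and 63.7, 78.3, 42.7, 71.4 and 71.4 CPM in WT replicates 1 to 5, where replicate 3 was far below the rest. Its log2 difference was 0.02 (SE 0.13, adjusted p = 0.924). Cavin3 had 168 to 171 CPM in KO and 193, 183, 201, 164 and 175 CPM in WT replicates 1 to 5. Of the WT libraries 4 lay above every KO library and replicate 4 lay below, and the log2 difference was -0.11 (SE 0.06, adjusted p = 0.222). The 95% intervals of the folds were 0.910 to 1.13 for Cavin1, 0.836 to 1.24 for Cavin2 and 0.850 to 1.01 for Cavin3. With KO as 1 sample they widened to 0.756 to 1.36, 0.638 to 1.62 and 0.731 to 1.17.

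The neck and membrane-shaping genes varied as Cav1 did. Ehd2 had 703 to 712 CPM in KO and 641, 936, 607, 959 and 888 CPM in WT replicates 1 to 5. Pacsin2 had 275 to 284 CPM in KO and 250, 370, 266, 381 and 355 CPM in WT replicates 1 to 5. For both genes WT replicates 2, 4 and 5 lay above every KO library and WT replicates 1 and 3 below. The log2 differences were -0.19 (SE 0.12, adjusted p = 0.338) for Ehd2 and -0.21 (SE 0.11, adjusted p = 0.228) for Pacsin2. The 95% intervals of the folds were 0.728 to 1.06 and 0.727 to 1.02, and with KO as 1 sample 0.551 to 1.40 and 0.565 to 1.31. Both passed without WT replicates 1 and 3, the same libraries that lay below every KO library for these genes. Leaving them out puts every WT library above KO, so these calls are no separate support for a difference. The 2 libraries also had the highest mitochondrial share of counts, 16.2% and 13.2% against 6.75% to 9.59% in the others. Without them 4386 of 16100 tested genes passed, against 2242 of 15710 with all libraries. In the fit without them the log2 differences were -0.60 for Cav1 (adjusted p = 9.89e-06), -0.38 for Ehd2 (7.96e-05) and -0.38 for Pacsin2 (4.47e-05). The same limit holds for Cav1, which was lowest in these WT libraries.

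**Figure D2:**
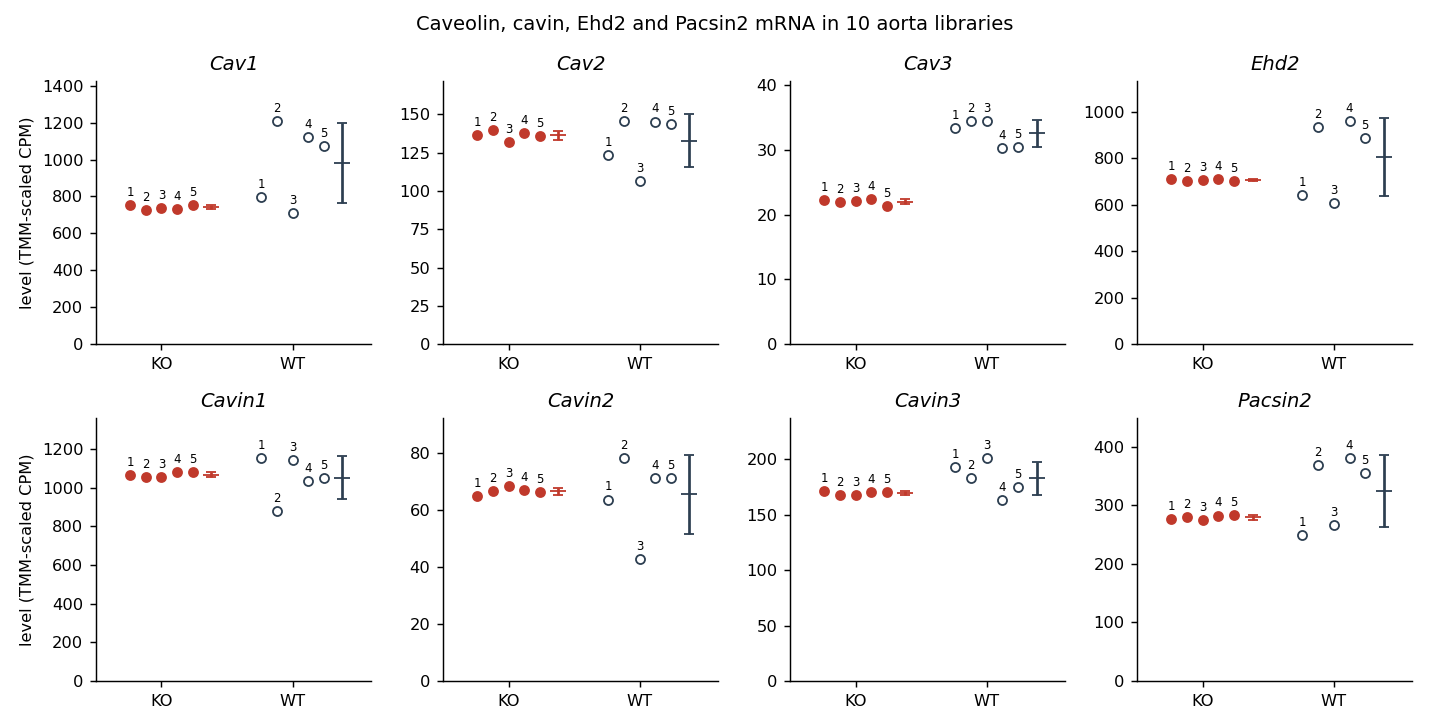
Level (TMM-scaled CPM, axes from 0) of the 8 tested members in the 5 libraries labelled KO (filled) and the 5 labelled WT (open), numbered by replicate, with mean and SD at the right of each group. The groups are apart in Cav3, while in Cav1, Ehd2 and Pacsin2 WT replicates 2, 4 and 5 lie above KO and WT replicate 3 lies below it.

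**Figure D3:**
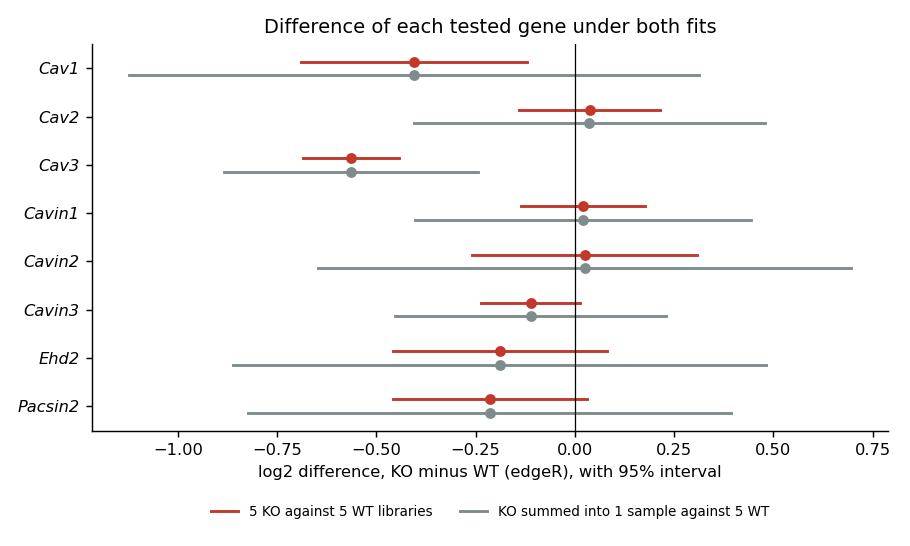
Log2 difference (KO minus WT) of the 8 tested members with its 95% interval, from 5 against 5 libraries (red) and with the KO counts summed into 1 sample (grey). The grey intervals are wider for each gene, and that of Cav3 is the only grey interval that leaves out 0.

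Within WT 7 of the 8 tested members fell into 2 patterns, a description made after their values were seen. Cav1, Cav2, Cavin2, Ehd2 and Pacsin2 were each highest in WT replicates 2, 4 and 5. Cavin1 and Cavin3 each had their 2 highest WT values in replicates 1 and 3. Cav3 was in neither pattern, with its highest WT values in replicates 2 and 3. The coefficient of variation over WT libraries was 22.1% for Cav1, 21% for Cavin2, 20.9% for Ehd2, 19.0% for Pacsin2 and 13.2% for Cav2. It was 10.5% for Cavin1, 8.13% for Cavin3 and 6.48% for Cav3, against a median of 9.70% over 5688 tested genes of at least 30 CPM. Within KO it was 0.645% to 2.15% for these 8 genes, with a median of 2.70% over the 5688.

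Most marker lists split the WT libraries as the first pattern did. CPM are relative to the library total, so these lists are not independent of each other or of the smooth muscle markers. The endothelial, fibroblast, adipocyte, brown adipocyte, striated muscle, macrophage and lymphocyte sums were each highest in WT replicates 2, 4 and 5. The fibroblast split was slight, with 2279 CPM in WT replicate 3 and 2332 CPM in WT replicate 4. Smooth muscle markers ran as Cavin1 and Cavin3 did, at 40512 and 40655 CPM in WT replicates 1 and 3. In WT replicates 2, 4 and 5 they summed to 32747, 26900 and 29787 CPM. The Schwann and nerve sum was also highest in WT replicates 1 and 3. The summed level of 10 endothelial markers was 304, 686, 258, 846 and 708 CPM in WT replicates 1 to 5 and 415 to 433 CPM in the libraries labelled KO. WT replicates 2, 4 and 5 were high in these markers as in Cav1. The KO libraries lay above WT replicate 1 in endothelial markers and below it in Cav1, a comparison with 1 WT library. Pecam1, an endothelial adhesion molecule, had a KO mean of 158 CPM and a WT range of 107 to 404 CPM, and 0 of the 10 markers passed. No endothelial or adipocyte marker was at 0 in all libraries. Adipocyte markers, 8 genes led by the fatty acid carrier Fabp4, summed to 844 to 883 CPM in KO and to 670, 796, 543, 2215 and 1679 CPM in WT replicates 1 to 5, and 0 of 8 passed. The summed level of the 8 brown adipocyte markers was 243 to 258 CPM in KO and 78.2 to 906 CPM in WT, highest in replicates 4 and 5. Of the other marker lists, 5 of 8 fibroblast, 4 of 9 Schwann and nerve, 2 of 6 macrophage and 4 of 7 tested lymphocyte markers were higher in KO, and 5 of 5 tested red cell markers were lower, against 6.84% of all tested genes higher and 7.43% lower. With KO as 1 sample 1 lymphocyte marker passed and 0 of the others did by edgeR. The part of these cell types in the levels of the members was not tested.

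**Figure D4:**
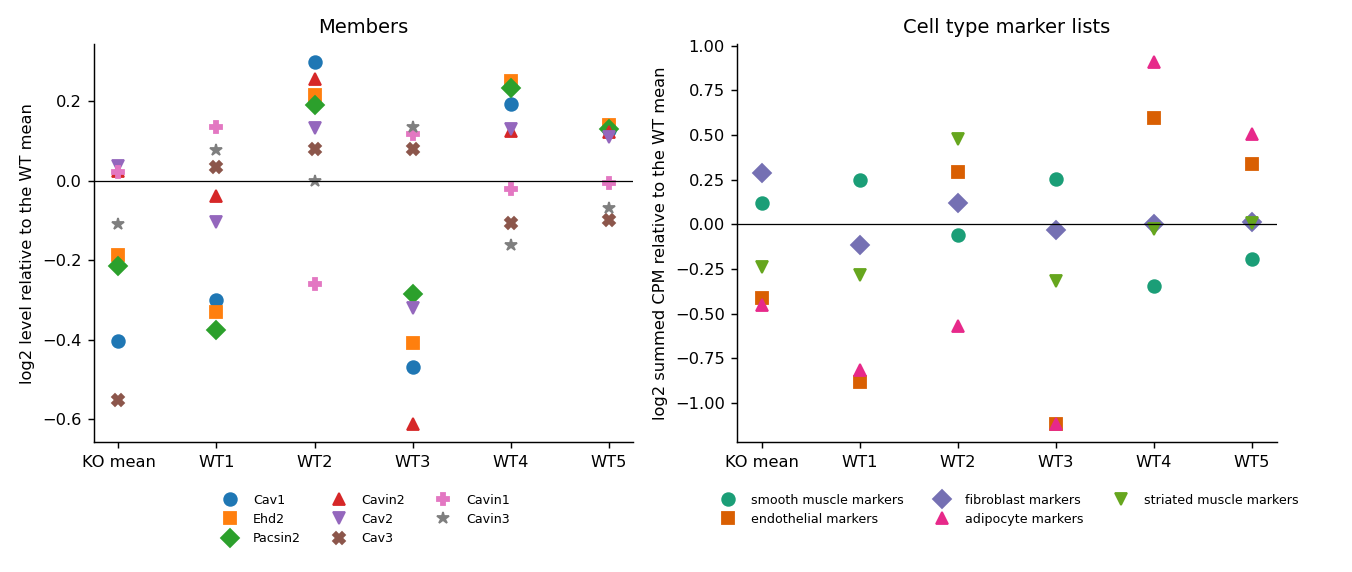
Left, log2 level of each tested member relative to its WT mean, for the mean of the 5 KO libraries and for WT replicates 1 to 5. Right, the summed CPM of 5 marker lists on the same kind of scale, with endothelial markers at 304 and 258 CPM in WT replicates 1 and 3 and 686 to 846 CPM in the other WT libraries.

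Genes outside the family with the most similar profile were sought over 6 points, the 5 WT libraries and the KO mean, among 9340 genes of at least 10 CPM. The measure was the root-mean-square (RMS) difference of centred log2 levels. Nearest to Cav1 were Lifr, a cytokine receptor subunit, at 0.040, Sbf2 at 0.045 and G6pdx, which makes NADPH in the pentose phosphate pathway, at 0.046. The RMS of the Cav1 profile itself was 0.307. Lifr had 103 to 110 CPM in KO and 115, 185, 104, 166 and 164 CPM in WT replicates 1 to 5. Of the members, Ehd2 (0.094) and Pacsin2 (0.116) were closest to Cav1, and Cavin1 (0.417) was farthest. Nearest to Cavin1, whose own RMS was 0.130, were Gstz1 (0.017), Slc38a7 (0.021) and Dzip1l (0.023), and Cavin3 was its closest member at 0.136.

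Ratios between members within a library do not depend on how libraries are scaled, and 6 were compared. Cav2 reads per Cav1 read were 0.181, 0.192, 0.179, 0.187 and 0.180 in KO replicates 1 to 5 and 0.155, 0.12, 0.150, 0.129 and 0.134 in WT replicates 1 to 5. The lowest KO ratio exceeded the highest WT ratio, and the KO level was 1.34 times the WT level (exact permutation p = 0.00794, adjusted over the 6 ratios 0.0238). Because the KO libraries were nearly identical, a KO ratio anywhere outside the WT range reaches this smallest possible p. The ratios were not compared with KO as 1 sample, and the share of such gaps among ratios of other genes was not tested. Ehd2 reads per Cav1 read were 0.935 to 0.970 in KO and 0.804, 0.775, 0.856, 0.854 and 0.828 in WT replicates 1 to 5, again without overlap (1.16 times, exact permutation p = 0.00794, adjusted 0.0238). Pacsin2 per Cav1 was 0.366 to 0.385 in KO and 0.306 to 0.375 in WT. Here WT replicate 3 reached into the KO range (1.13 times, exact permutation p = 0.0238, adjusted 0.0476), and the adjusted p was 0.0635 without KO replicate 2, 4 or 5. Cav1 was thus low in the libraries labelled KO relative to 3 other caveolar genes measured in the same libraries. These 3 ratios share Cav1 and are not independent of each other. A ratio shows unequal change and not which gene changed.

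The ratios to or among cavins did not pass. Cavin1 per Cav1 was 1.41 to 1.47 in KO, and in WT replicates 1 to 5 it was 1.45, 0.727, 1.61, 0.923 and 0.978 (exact permutation p = 0.151, adjusted 0.181). It differed 2.22-fold between the highest and the lowest WT library. Without WT replicate 3 its adjusted p was 0.0476. Cavin2 per Cavin1 was 0.0611 to 0.0648 in KO and 0.0373 to 0.0892 in WT (exact permutation p = 0.865, adjusted 0.865). Cavin3 per Cavin1 was 0.158 to 0.161 in KO and 0.158 to 0.209 in WT (exact permutation p = 0.0397, adjusted 0.0595), and the adjusted p was 0.0476 without WT replicate 3 and 0.0159 without WT replicate 4. These p-values treat the KO libraries as 5 samples.

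**Figure D5:**
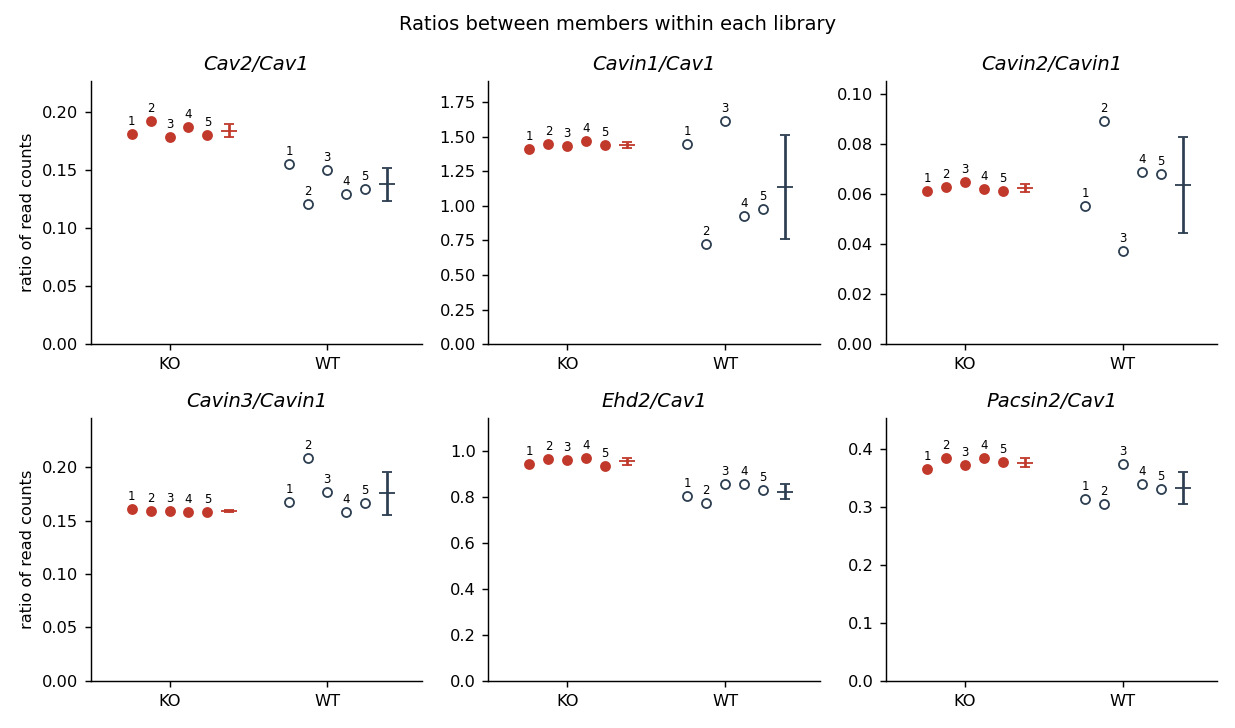
Ratio of read counts between 2 members within each library, for 6 pairs, in the libraries labelled KO (filled) and WT (open), numbered by replicate, with mean and SD. Cav2/Cav1 and Ehd2/Cav1 are the 2 ratios in which every KO library lies above every WT library.

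Expressed as shares of the 3 caveolins per length, Cav1 made up 77.6% to 78.7% in KO and 77.0% to 82.7% in WT. Cav2 made up 14.5% to 15.4% in KO and 10.3% to 12.5% in WT, and Cav3 6.66% to 7.05% and 6.60% to 11.1%. Of these 3 shares that of Cav2 had no overlap between the groups, while the share of Cav3 was highest in WT replicates 1 and 3, where Cav1 was low. Among the cavins, Cavin1 held 70.4% to 70.8% in KO and 64.3% to 70.3% in WT, with WT replicate 2 lowest. These ranges also did not overlap, but the gap was very small. The shares of Cavin2, Cavin3 and Cavin4 overlapped between the groups. Because the KO libraries were nearly identical, such gaps arise easily, and how often shares of other genes part was not tested.

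Other genes of caveolae, their cargo and neighbouring endocytic routes were read from 7 lists with 92 genes, of which 87 were tested. Of these 10 passed, with KO above WT for 4 and below it for 6, a share of 11.5% against the background of 14.3%. Their median log2 difference was -0.03, and that of all tested genes -0.02. With scaling to total counts alone 8 passed, all 8 higher, and with RLE size factors 4 were higher and 5 lower. Without the low-count filter 5 were higher and 1 lower. With KO as 1 sample 0 of the 87 passed by edgeR, and 0 had an unadjusted p under 0.05.

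Among 9 scaffold and coat partners 1 was higher and 1 lower, both F-BAR proteins like Pacsin2. Fnbp1 had means of 137 and 115 CPM in KO and WT (log2 difference 0.25, SE 0.06, adjusted p = 0.0216), and Trip10 160 and 187 CPM (-0.23, SE 0.05, adjusted p = 0.00797). Of 7 tested EHD, pacsin and dynamin relatives 0 passed by edgeR. Closest was Dnm1, a dynamin that cuts vesicles from the membrane, at 14.2 and 9.49 CPM (0.58, SE 0.18, adjusted p = 0.0569). Of 28 signalling proteins known to bind caveolin or sit in caveolae, the sodium-calcium exchanger gene Slc8a1 was higher (0.42, adjusted p = 0.0309) and the insulin receptor gene Insr lower (-0.17, adjusted p = 0.0199).

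A list of 6 tested genes held serum response factor, the myocardin family and the regulators Pparg and Klf4. Of these, Mrtfa, a coactivator of smooth muscle genes, was lower at 22.6 against 28.1 CPM (-0.32, adjusted p = 0.0396), while Myocd had -0.10 and did not pass. Of 12 membrane lipid genes, Ptdss1, which makes phosphatidylserine, was higher (0.19, adjusted p = 0.0320). Of 7 tested flotillin and stomatin relatives, Erlin2 was higher (0.20, adjusted p = 0.0459) and Stoml2 lower (-0.18, adjusted p = 0.0222). Flotillins mark flat membrane rafts, and neither flotillin gene passed, the nearer being Flot1 (-0.11, adjusted p = 0.0722). Among 18 tested genes of the clathrin route, which forms vesicles apart from caveolae, the light chain gene Cltb (-0.26, adjusted p = 0.0112) and Eps15l1 (-0.21, adjusted p = 0.0438) were lower.

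Of these 10 calls, Trip10 and Cltb held when any KO library was left out (adjusted p at most 0.0313 and 0.0367). The other 8 each lost their call without at least 1 KO library (highest adjusted p 0.0574 to 0.113). Without a WT library calls also ended for Fnbp1 (replicate 5), Stoml2 (replicate 1), Ptdss1 (replicates 4 and 5), Erlin2 (replicates 1 and 3), Mrtfa (replicates 1, 3 and 4) and Eps15l1 (replicates 1, 3, 4 and 5), at adjusted p up to 0.0521, 0.0507, 0.0740, 0.0714, 0.0759 and 0.0931.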

How the data were processed

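Counts per gene, 1 library per deposited file, were used as deposited. Per the submitters' processing notes the tools and builds named are Bowtie 0.12.2, mm8 and mm9, with no roles. Strand setting, annotation and counting software: not given in the sources used here. Of 35667 identifiers 35519 matched GENCODE M21 (GRCm38), whose exons gave gene lengths. Libraries were grouped by title. Genes were tested with edgeR 4.0.16 in R 4.3.3 (quasi-likelihood F, TMM, robust, filterByExpr with minimum count 10 and total 15, 15710 genes) without a covariate, with Benjamini-Hochberg adjustment over all tested genes and a threshold of 0.05. SEs were derived from the log2 difference and F. CPM are TMM-scaled. Single levels, on log2(CPM + 0.5), and 6 ratios were compared by two-sided exact permutation over all splits of 5 against 5. A second fit took the summed KO counts as 1 sample. Alternatives were other size factors and filters, DESeq2 1.42.0, limma-voom with sample weights (limma 3.58.1), a replicate block and left-out libraries. Scaling to total counts was added after seeing the data. The code was run on simulated data, with a check only for KO simulated as 5 independent libraries. That check does not show how many false calls the main fit gives if the KO libraries share 1 source.

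The members and lists were chosen with earlier results of these data known. Genes named outside the 9 members were Ovgp1, up to 4 of smallest p per related list and the 2 most abundant per marker list. The 3 nearest in profile to Cav1 and to Cavin1 were also named. Tagln, the skeletal myosins, Myh6 and Klf4 were named after their values were seen. Total counts, 21242030 to 26694590 per library, set the counting error.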

Additional observations from a re-analysis of the deposited data

How the results depend on the processing

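Cav3 kept its direction in all 20 alternatives (log2 difference -0.63 to -0.48) and its call in 19, the exception being the fit with KO as 1 sample. Cav2, Cavin1 and Cavin2 passed in none of the 20, and their sign was not fixed across them. With DESeq2, 2975 genes, 2 members (Cav3 and Cav1) and 18 related genes passed. With limma-voom the counts were 6477 genes, 4 members and 37 related genes, and with KO as 1 sample 7, 0 and 0 (1 member, Cav3, had an unadjusted p under 0.05). Without WT replicates 1 and 3 they were 4386, 4 and 30, with 5 ratios. Without WT replicates 4 and 5, the libraries highest in brown adipocyte markers, 2 members (Cav3 and Cavin3) and 21 related genes passed. Without the low-count filter 6 related genes passed. Over all genes, the split of higher and lower calls was 1075 and 1167 in the main test, 1561 and 493 with total counts alone, and 1294 and 676 without the low-count filter. Leaving out 1 library at a time gave 1287 to 2678 genes, 1 to 2 members, 2 to 15 related genes and 2 to 5 ratios. Leaving out any KO library brought the genes to 1287 to 1393 and the related genes to 2 to 4. Pparg was reversed without WT replicates 4 and 5 (log2 difference 0.75, adjusted p = 0.0215). The cause of these changes was not tested.

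Replicate numbers are shared by the groups, but the labels do not say that they pair samples, and same-numbered libraries had correlations of -0.037 to 0.047 in their deviations from group means over 15710 genes. With the replicate block 1319 genes, 1 member (Cav3, adjusted p = 0.00523) and 2 related genes passed. For the ratios the block allows no p below 0.0625, so 0 of 6 could pass.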
